A study of Mus musculus with 8 samples.

Results

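Lin28, the let-7 microRNAs and the enzymes that make and use microRNAs form 1 pathway, and 10 of its genes were read in 8 clones of mouse iPS (induced pluripotent stem) cells. The genes are Lin28a, Lin28b, Trim71, Drosha, Dgcr8, Dicer1, Xpo5, Ago1, Ago2 and Tarbp2. They were chosen by symbol, without use of their values, as every probe set annotated to exactly 1 of these symbols, which gave 23 of 45037 probe sets and 10 of 18193 genes. All 10 had a probe set. The choice was prompted by Mirg and Rian, transcripts that host microRNAs, and was made with earlier results of these data known.

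All 8 clones were derived from embryonic fibroblasts (MEFs) of Col-OKSM reprogrammable mice, in which doxycycline induces Oct4, Sox2, Klf4 and cMyc. The 4 clones called supplemented here were derived with ascorbic acid (vitamin C) in the medium, and the 4 unsupplemented clones were derived without it. Both groups had serum, LIF and doxycycline and grew on irradiated MEF feeder cells, which were reduced by preplating before total RNA was taken. Each sample is 1 clone on 1 Affymetrix mouse 430_2 3'-IVT array. Strain, sex and age of the embryos are not given in the labels, nor whether the clones came from separate embryos, so a p-value here reflects only how these clones vary. The series title names B cells, but the labels of these 8 samples give MEFs as the source.

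In this pathway the Microprocessor, made of the nuclease DROSHA and its RNA-binding partner DGCR8, cuts microRNA hairpins out of longer transcripts. Exportin-5 (Xpo5) carries the hairpins to the cytoplasm, DICER1 with TARBP2 trims them, and Argonaute proteins (Ago1, Ago2) use the product to silence mRNAs. LIN28A and LIN28B bind let-7 precursors and hold back their processing, and LIN28A recruits terminal uridylyltransferases that mark them for decay. Pluripotent cells are known for high Lin28a and little mature let-7, and Lin28a, Lin28b and Trim71 mRNAs are themselves let-7 targets.

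The let-7 sequences are shown because they are what LIN28 acts on, although the array measured no mature microRNA. The RefSeq table of GRCm38.p6 held 13 let-7 and miR-98 loci with 11 different mature names. Bases 2 to 8 (the seed, in capitals) were the same in 10 of those 11. The following mature sequences show the shared seed and, in let-7j, the 1 exception.
let-7a: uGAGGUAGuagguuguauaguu
let-7d: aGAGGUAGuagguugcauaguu
let-7g: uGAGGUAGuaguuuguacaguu
miR-98: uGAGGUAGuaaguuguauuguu
let-7j: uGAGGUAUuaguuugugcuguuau
These lie at chr13:48538239-48538260 on the minus strand (let-7a, locus Mirlet7a-1), chr13:48536078-48536099 on the minus strand (let-7d), chr9:106178846-106178867 on the plus strand (let-7g), chrX:151913229-151913250 on the plus strand (miR-98) and chr3:140028281-140028304 on the plus strand (let-7j).

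The zinc knuckles of LIN28 are known to bind a GGAG motif in the loop of let-7 precursors. Of the 11 let-7 and miR-98 hairpins with both arms in the table, 8 held GGAG between the arms, searched on the RNA strand only. The same letters stood between the arms in 8.07% of all 644 hairpins with both arms, whose loops differ in length. A hairpin with the motif, in capitals, and a hairpin without it are printed for comparison.
Mirlet7g: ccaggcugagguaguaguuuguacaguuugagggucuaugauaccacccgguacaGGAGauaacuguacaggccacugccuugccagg
Mirlet7b: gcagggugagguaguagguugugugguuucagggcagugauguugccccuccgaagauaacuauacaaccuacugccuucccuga
Mirlet7g lies at chr9:106178840-106178927 and Mirlet7b at chr15:85707319-85707403, both on the plus strand. The absence of these letters says nothing about binding to Mirlet7b.

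None of the 10 genes passed the test between supplemented and unsupplemented clones. Values are deposited signal intensities per probe set, the brightest probe set stands for its gene, and differences are supplemented minus unsupplemented on the scale of log2(signal + 16). The test was limma over all 13125 genes tested with Benjamini-Hochberg adjustment, and 0.0229% of all genes (3) passed an adjusted p of 0.05. Adjusted p-values of the 10 genes ran from 0.749 to 0.988 in limma. At an unadjusted limma p under 0.05 there was 1 gene of the 10, Drosha, against 5.83% of all genes. The 10 differences lay between -0.081 and 0.31 log2.

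The 95% intervals from limma describe the brightest probe set of each gene only. In 9 of the 10 genes the whole 95% interval of the difference lay within 0.5 log2 of 0, a limit chosen after the values were seen, and 77.2% of all genes met it. Lin28b was the gene that did not. By probe set, 20 of the 22 tested met the limit, beside 19265 of all 27022. The exceptions were the Lin28b probe set and a dimmer Dgcr8 probe set, 1422981_at (95% interval -0.61 to 0.019). The median difference of the 10 was 0.053 log2, beside -0.0040 over all genes, and 8 of the 10 were above 0, as were 48.6% of all genes. Under median centring of the arrays, 9 of the 10 and 60.1% of all genes were above 0.

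**Figure D1:**
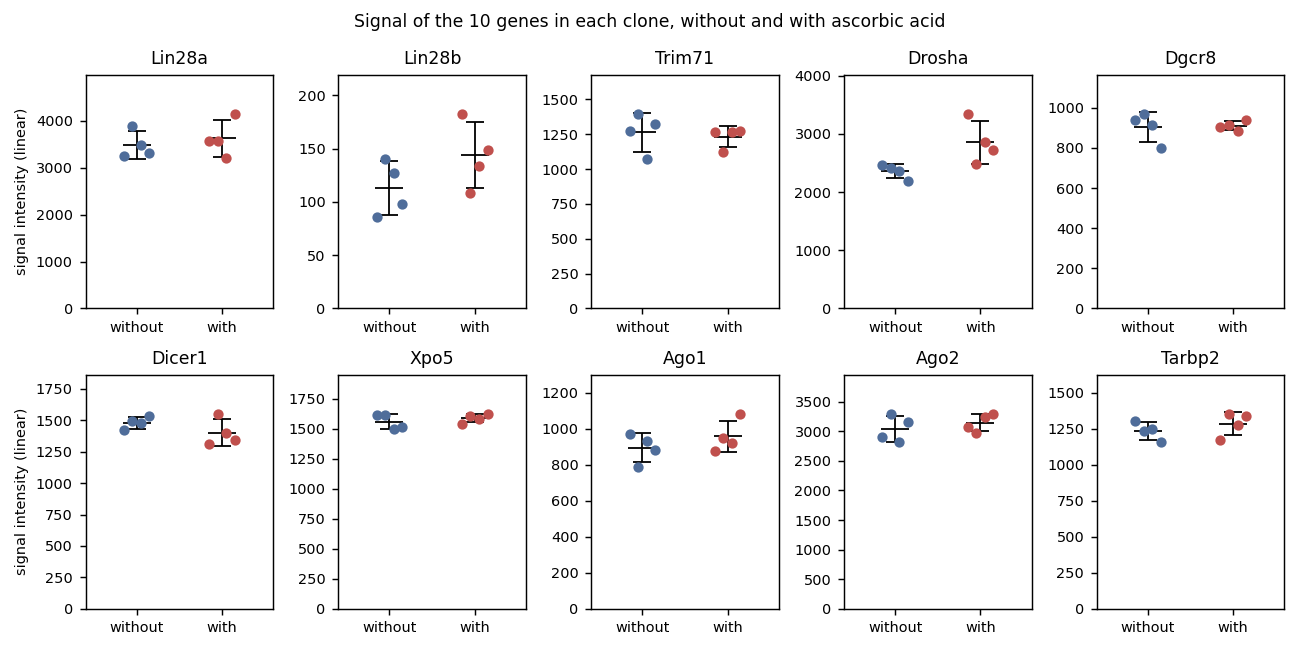
Signal intensity (linear scale from 0) of the brightest probe set of each of the 10 genes in the 4 clones without (blue) and the 4 with ascorbic acid (red); each point is 1 clone, the long dash is the mean and the bars are 1 SD. The groups overlap in every panel but that of Drosha, where the lowest supplemented clone reads 2484 and the highest unsupplemented clone 2467.

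Lin28a, the LIN28 protein gene known as a marker of pluripotent cells, was read by 2 probe sets. On the brighter one (1437752_at) supplemented clones 1 to 4 read 3570, 3577, 3210 and 4153, and unsupplemented clones 1 to 4 read 3240, 3895, 3491 and 3305. Supplemented clone 4 was the highest of the 8 and supplemented clone 3 the lowest, so the groups overlapped fully. The means were 3627 ± 390 and 3483 ± 295 (SD, n = 4 each), a difference of 0.056 ± 0.083 log2 (SE; 95% interval -0.12 to 0.24; limma adjusted p = 0.945). Without supplemented clone 4 the difference was -0.011.

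The other Lin28a probe set (1421749_at) read 2312, 2046, 1951 and 2372 in supplemented clones 1 to 4 and 1900, 2082, 1897 and 1877 in unsupplemented clones 1 to 4. Supplemented clones 1 and 4 lay above all 4 unsupplemented clones, and the other supplemented clones lay among them. The difference was 0.16 ± 0.074 log2 (SE; limma over all 27022 probe sets tested, unadjusted p = 0.0536, adjusted p = 0.882). Supplemented clone 4 was the highest clone on both probe sets.

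Lin28b, the LIN28A paralog, was dim and was the most variable of the 10. Its 1 probe set (1430803_at) read 183, 108, 134 and 149 in supplemented clones 1 to 4, and 85.4, 140, 127 and 98.2 in unsupplemented clones 1 to 4. Supplemented clones 1 and 4 were above every unsupplemented clone, while clones 2 and 3 lay among them. These signals stand close to the limit of 93.7 below which probe sets were left out, and unsupplemented clone 1 was under it. The means were 144 ± 31.3 and 113 ± 25.1 (SD, n = 4 each), and the difference was 0.31 ± 0.20 log2 (SE; 95% interval -0.13 to 0.76; limma adjusted p = 0.847). It was 0.20 log2 without supplemented clone 1 and 0.20 log2 without unsupplemented clone 1.

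Trim71 (Lin41) encodes an RNA-binding ubiquitin ligase that represses mRNAs in early embryonic cells. Its brighter probe set (1453599_at) read 1268, 1121, 1266 and 1275 in supplemented clones 1 to 4 and 1270, 1398, 1070 and 1323 in unsupplemented clones 1 to 4. The supplemented clones lay wholly inside the range of the unsupplemented ones. The difference was -0.032 ± 0.085 log2 (SE; 95% interval -0.22 to 0.15; limma adjusted p = 0.971), and its sign turned without clone 2 of either group and under median centring. On the other probe set (1456673_at) the groups read 1056 to 1181 and 1080 to 1170, with a difference of -0.015 log2.

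Drosha, the Microprocessor nuclease, showed the smallest p of the 10 genes, on the probe set with the largest difference among those of the gene. Probe set 1438505_s_at, of a class that can read several transcripts, read 3351, 2484, 2853 and 2725 in supplemented clones 1 to 4 and 2467, 2419, 2362 and 2198 in unsupplemented clones 1 to 4. Each supplemented clone was above every unsupplemented clone, though clone 2 only just, and clone 1 stood highest. Drosha was thus 1 of 10 genes whose groups did not overlap, against 3.63% of all genes. The means were 2853 ± 365 and 2361 ± 117 (SD, n = 4 each), a 1.20-fold difference on the log2(signal + 16) scale (0.26 ± 0.083 log2, SE; 95% interval 0.083 to 0.45). Its unadjusted limma p of 0.00788 ranked 130 of 13125 genes, and its adjusted p was 0.749.

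The other Drosha probe sets gave smaller differences. Probe set 1428656_at read 1962, 1887, 1969 and 1985 in supplemented clones 1 to 4 and 2089, 1859, 1890 and 1674 in unsupplemented clones 1 to 4. Here the supplemented clones lay inside the unsupplemented range, and the difference was 0.059 ± 0.069 log2 (SE; 95% interval -0.093 to 0.21; limma over probe sets, adjusted p = 0.935). Probe set 1438440_at ranged from 331 to 450 with and from 350 to 429 without ascorbic acid, a difference of -0.012 log2. The mean of the 3 Drosha probe sets gave 0.10 log2 (limma unadjusted p = 0.0756, adjusted p = 0.878), and leaving out probe sets of the _s_at and _x_at classes gave 0.059. Whether the probe sets differ from each other in their response was not tested.

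Dgcr8, the RNA-binding partner of DROSHA in the Microprocessor, had 4 probe sets, of which 1446169_at was below the limit for dim probe sets, with 16.2 to 80.0 with and 35.2 to 77.7 without ascorbic acid. The brightest (1435439_at) read 906, 912, 883 and 939 in supplemented clones 1 to 4 and 938, 971, 912 and 800 in unsupplemented clones 1 to 4. The supplemented clones spanned a narrower range, inside that of the others. The difference was 0.011 ± 0.073 log2 (SE; 95% interval -0.15 to 0.17; limma adjusted p = 0.988). Its sign turned without clone 4 of either group and with the mean of the probe sets.

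A dimmer Dgcr8 probe set (1422981_at) read 254, 217, 243 and 254 in supplemented clones 1 to 4 against 261, 318, 389 and 250 in unsupplemented clones 1 to 4. Unsupplemented clone 3 was the highest, and only unsupplemented clone 4 fell among the supplemented clones. The difference, -0.30 ± 0.14 log2 (SE; 95% interval -0.61 to 0.019), did not pass (limma over probe sets, unadjusted p = 0.0632, adjusted p = 0.882). The fourth, 1455311_at, ranged from 712 to 850 with and from 727 to 845 without ascorbic acid, at -0.076 log2.

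Xpo5, the export receptor of hairpin precursors, varied least of the 10 between clones. Its brighter probe set (1451468_s_at) ranged from 1542 to 1626 in supplemented and from 1500 to 1617 in unsupplemented clones. The difference was 0.028 ± 0.056 log2 (SE; 95% interval -0.093 to 0.15; limma adjusted p = 0.960), and the other probe set (1428560_at) gave 0.046 log2.

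Dicer1 encodes the nuclease that trims precursors to their mature length. On probe set 1427941_at supplemented clones 1 to 4 read 1311, 1552, 1400 and 1343, and unsupplemented clones 1 to 4 read 1420, 1495, 1475 and 1534. In 3 of the 4 supplemented clones the signal was below every unsupplemented clone, but clone 2 was the highest of all 8. The means were 1401 ± 107 and 1481 ± 47.5 (SD, n = 4 each), a difference of -0.081 ± 0.066 log2 (SE; 95% interval -0.22 to 0.062; limma adjusted p = 0.888). The other Dicer1 probe set (1460571_at) gave 0.034 log2.

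Tarbp2, the double-stranded RNA-binding partner of DICER1, ranged from 1175 to 1354 with and from 1155 to 1306 without ascorbic acid on probe set 1423616_at. Its difference was 0.056 ± 0.067 log2 (SE; 95% interval -0.091 to 0.20; limma adjusted p = 0.933). Probe set 1438952_x_at was dim, from 77.7 to 117 over the 8 clones, at 0.076 log2.

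Ago2, the Argonaute with slicer activity, was read by 4 probe sets, all with differences above 0 but of unequal size. The brightest (1455389_s_at) read 3071, 2976, 3248 and 3292 in supplemented clones 1 to 4 and 2900, 3296, 2822 and 3151 in unsupplemented clones 1 to 4. The groups overlapped, with the highest signal in an unsupplemented clone. The difference was 0.050 ± 0.064 log2 (SE; 95% interval -0.090 to 0.19; limma adjusted p = 0.936).

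On 2 further Ago2 probe sets 3 of the 4 supplemented clones were above every unsupplemented clone. Probe set 1426366_at read 1261, 1074, 1185 and 962 in supplemented clones 1 to 4 and 920, 993, 969 and 966 in unsupplemented clones 1 to 4, a difference of 0.21 ± 0.084 log2 (SE; limma over probe sets, unadjusted p = 0.0282, adjusted p = 0.871). Probe set 1455294_at read 1060, 1272, 1312 and 1273 against 1051, 1110, 934 and 1162, a difference of 0.20 ± 0.088 log2 (SE; limma over probe sets, unadjusted p = 0.0385, adjusted p = 0.882). The supplemented clone inside the unsupplemented range was clone 4 on the former and clone 1 on the latter. The fourth, 1435636_at, gave 0.035 ± 0.14 log2 (SE), with 1253 to 1863 in supplemented and 1212 to 1769 in unsupplemented clones. The mean over the 4 Ago2 probe sets gave 0.12 log2 (limma unadjusted p = 0.0465, adjusted p = 0.878).

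Ago1, another Argonaute, was read by 1434331_at at 880, 949, 920 and 1084 in supplemented clones 1 to 4 and at 972, 786, 934 and 883 in unsupplemented clones 1 to 4. Supplemented clone 4 was the highest and the other supplemented clones lay in the unsupplemented range. The difference was 0.098 ± 0.087 log2 (SE; 95% interval -0.091 to 0.29; limma adjusted p = 0.896).

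Counted by probe set, 22 of the 23 were above the limit for dim probe sets. None of the 22 passed an adjusted limma p of 0.05, against 0.0481% of all probe sets, and 3 had an unadjusted p under 0.05 (1 of Drosha and 2 of Ago2, all higher with ascorbic acid), against 5.55% of all in either direction and 2.63% in that direction. Groups did not overlap in 1 of the 22, against 3.4% of all probe sets. The median of the 22 was 0.048 log2 and that of all probe sets -0.011. Probe sets of 1 gene share their transcript and are not replicates.

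**Figure D2:**
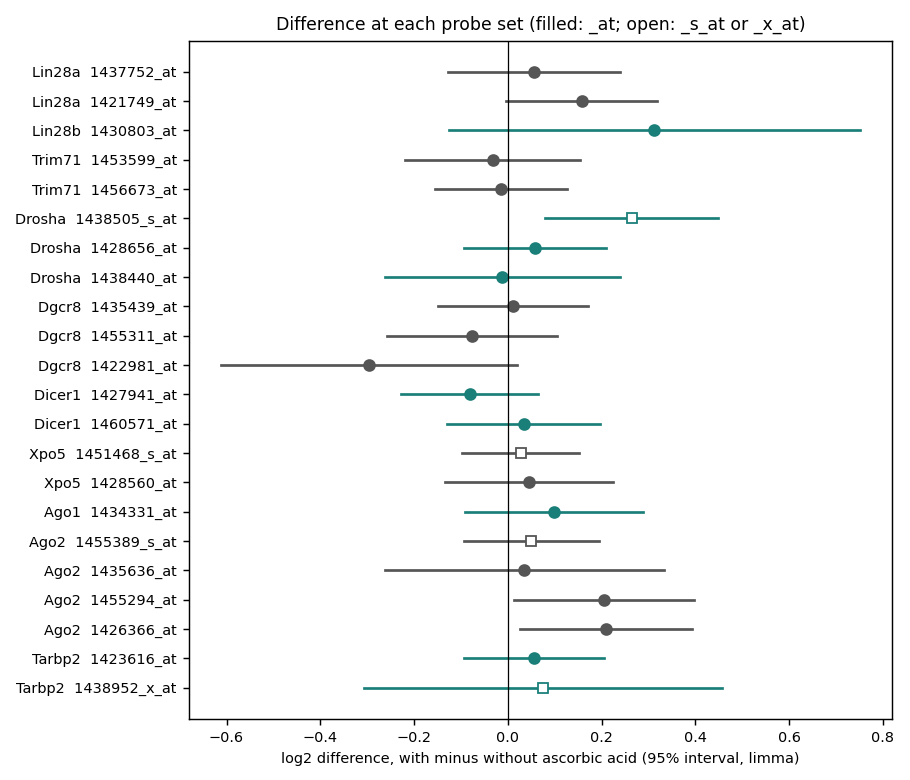
Difference between supplemented and unsupplemented clones (log2 scale) at each of the 22 probe sets above the dim limit, with the 95% interval from limma; filled points are _at probe sets and open squares are _s_at or _x_at probe sets. Intervals leave out 0 at 1 Drosha and 2 Ago2 probe sets, and the other probe sets of both genes include 0.

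The spread between clones was small for most of the 10 genes. The SD of log2(signal + 16) over all 8 clones was 0.0458 for Xpo5, lower than in all but 1.18% of genes tested. It was 0.0820 to 0.0875 for Dgcr8, Tarbp2, Ago2 and Dicer1, 0.123 to 0.131 for Trim71, Lin28a and Ago1, 0.190 for Drosha and 0.312 for Lin28b, which was at percentile 88.3. The median of the 10 was 0.105 and that of all genes 0.155. Spread falls with brightness on this array: genes above the median brightness, 9 of the 10 among them, had a median of 0.111, and genes below it, Lin28b among them, 0.218. Signals of different probe sets are not on 1 scale, so the levels of the 10 genes were not ranked.

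**Figure D3:**
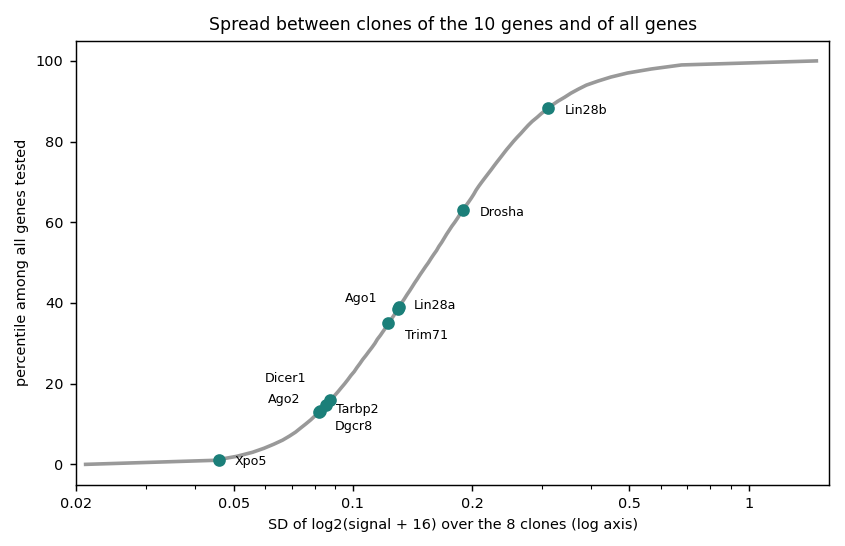
Percentile of each gene's SD of log2(signal + 16) over the 8 clones (log axis) among all 13125 genes tested; the grey line is the distribution over all genes and the points are the 10 genes. Xpo5 lies at percentile 1.18 and Lin28b at 88.3.

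Other genes of the pathway were taken from lists given by role, and none of the genes in the lists of LIN28 partners, processing partners or silencing effectors passed in limma. At an unadjusted limma p under 0.05 these lists held 0 of 9, 1 of 12 and 4 of 21 genes, beside 5.83% of all genes. Of 9 LIN28 partners and decay factors, 4 were higher and 5 lower (median -0.025 log2), but 6 were higher and 3 lower under median centring (median 0.0080). Over all genes, 48.6% were above 0 (median -0.0040), 50.5% under quantile normalization (median 0.0010) and 60.1% under median centring (median 0.029). Tut4, a uridylyltransferase that LIN28A recruits to pre-let-7, had 0.12 ± 0.061 log2 (SE; 2622 ± 189 and 2403 ± 65.1, SD, n = 4 each; limma adjusted p = 0.844), and its relative Tut7 had 0.13 ± 0.076 (adjusted p = 0.844). Of 12 other Microprocessor, export and Dicer partners, 4 were higher and 8 lower (median -0.023), but 7 were higher and 5 lower under quantile normalization (median 0.0010) and under median centring (median 0.010). Tsnax, a subunit of the nuclease that helps load Argonaute, had -0.19 log2 and Snd1, a nuclease found in silencing complexes, -0.21 (limma adjusted p = 0.844 for each). Of 21 tested Argonaute partners and silencing effectors, 13 were higher and 8 lower (median 0.041). Among them Ajuba, a LIM protein that binds Argonaute, had 0.22 log2 (limma adjusted p = 0.757) and Ddx6, a helicase of mRNA decay, 0.15 (adjusted p = 0.826).

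Genes known to be held down by let-7 or TRIM71 gave no call either. Of 27 let-7 targets listed 20 were tested. Of these 15 were higher and 5 lower, beside 48.6% of all genes above 0. Their median was 0.033 log2 beside -0.0040 for all genes. Before adjustment, limma put 1 of these 20 and 0 of 7 TRIM71 targets under 0.05, beside 5.83% of all genes. The former was Myc, a growth-promoting transcription factor, which read 306, 306, 205 and 379 in supplemented clones 1 to 4 and 185, 169, 251 and 141 in unsupplemented clones 1 to 4. In 3 supplemented clones Myc was above every unsupplemented clone, and clone 3 lay among them. Its difference of 0.63 ± 0.20 log2 (SE) did not pass (limma unadjusted p = 0.00793, adjusted p = 0.749). All clones carry an inducible cMyc and were grown with doxycycline, and whether this probe set reads the transgene was not tested. Arid3a, a transcription factor, had -0.20 log2 (adjusted p = 0.844). Of 7 TRIM71 targets 4 were higher and 3 lower, with Egr1 at -0.17 and E2f7 at 0.12 log2 (limma adjusted p = 0.844 for each), but 3 were higher and 4 lower under quantile normalization (the median of 0.0010 turned to -0.0080).

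Of the microRNA host transcripts that prompted the choice of these genes, Rian rose with ascorbic acid, and Mirg was higher but did not pass. Meg3, an imprinted noncoding RNA like both, rose too. Rian read 2319 ± 413 with and 364 ± 144 without ascorbic acid and Meg3 6723 ± 1645 and 1304 ± 534 (SD, n = 4 each; limma adjusted p = 0.00042 and 0.00324). These are the brightest probe sets, at 2.68 and 2.42 log2, and that of Meg3 is of the _x_at class. The mean of the tested probe sets gave less, 1.98 log2 for Rian and 1.38 for Meg3 (limma adjusted p = 0.00319 and 0.00154). Without _s_at and _x_at probe sets Meg3 had 2.33 log2. Meg3 no longer passed when limma was run with no intensity trend (adjusted p = 0.136) or with robust eBayes (adjusted p = 0.0842), while Rian passed in both. Mirg read 686 ± 50.9 and 383 ± 132 on its brightest probe set (limma adjusted p = 0.412). Of 15 listed host transcripts 10 were tested, of which 7 were higher and 3 lower, beside 48.6% of all genes above 0. In this list 2 passed, beside 0.0229% of all genes. Meg3, Rian and Mirg were the 3 with an unadjusted limma p under 0.05 (5.83% of all genes) and non-overlapping groups (3.63%). Rian and Mirg prompted the choice of genes, so these counts are no independent result about host transcripts.

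For let-7 itself, genes were read whose annotated span overlaps a let-7 or miR-98 locus, found by position without regard to strand. Of 4 such genes, Huwe1, a ubiquitin ligase whose span holds Mirlet7f-2 and Mir98, had 0.044 ± 0.070 log2 (SE; limma adjusted p = 0.953). Wdr82, whose span holds Mirlet7g, had 0.043 ± 0.064 (SE; adjusted p = 0.946). Lncppara (Mirlet7b and Mirlet7c-2) and Spaca6 (Mirlet7e) were below the dim limit, with signals of 20.2 to 184 and 10.7 to 76.8 over the 8 clones. The rule by position left out Mir99ahg, a listed host transcript that was on the array but below the dim limit. A host transcript's level is no measure of mature let-7.

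**Figure D4:**
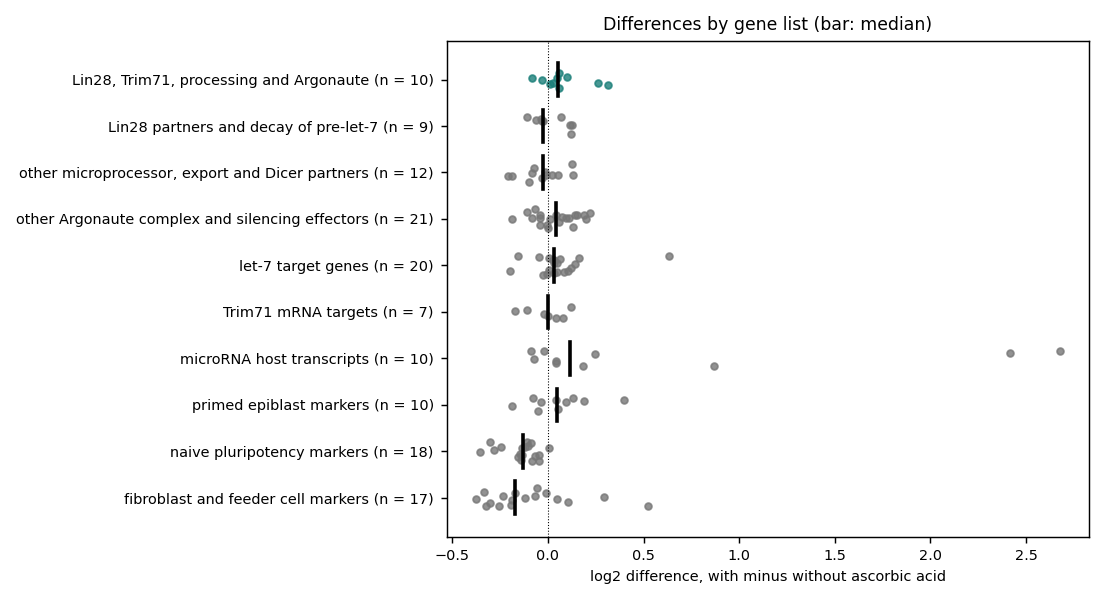
Difference between supplemented and unsupplemented clones (log2 scale) of each tested gene, by list; each point is 1 gene and the black bar is the list's median. The 10 genes lie between -0.081 and 0.31, and the points beyond 2 in the row of host transcripts are Meg3 and Rian.

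Defining markers of the labelled cell type gave high signals in both groups: Pou5f1 read 10295 ± 948 with and 11283 ± 292 without ascorbic acid, Nanog 8948 ± 891 and 9709 ± 294, and Sox2 14333 ± 529 and 15002 ± 335 (SD, n = 4 each; limma adjusted p = 0.844, 0.844 and 0.902). Pou5f1 (Oct4) and Sox2 are also transgene factors, and whether their probe sets read transgene RNA was not tested; Nanog is not among those factors. Naive pluripotency markers had negative differences in 17 of 18 (16 of 18 under quantile normalization), with summed signals of 115468 to 137139 with and 130732 to 142773 without, and 0 passed; before adjustment, limma put 3 of them under 0.05, beside 5.83% of all genes. Tbx3 had -0.28 and Klf2 -0.30 log2 (limma adjusted p = 0.616 and 0.697). Fibroblast and feeder markers were lower in 13 of 17 tested (12 of 17 under median centring), with summed signals over 20 genes of 42879 to 52658 with and 50392 to 53804 without; 0 passed (6 had an unadjusted limma p under 0.05, again beside 5.83% of all), and none was listed at 0. Postn had -0.38 and Twist1 0.52 log2 (limma adjusted p = 0.749 for each). Primed epiblast markers were higher in 6 of 10, and 0 passed (1 had an unadjusted limma p under 0.05, beside 5.83% of all). Pou3f1 had 0.40 and Lef1 0.19 log2 (limma adjusted p = 0.749 and 0.844). Beside these counts of direction, 48.6% of all genes were above 0 (50.5% under quantile normalization and 60.1% under median centring). In these bulk samples fewer cells of a type and less RNA per cell cannot be told apart, and the part of these shifts in the differences of the 10 genes was not tested.

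Array medians were 134 to 156, actin probe sets gave a 3'/5' ratio of 1.14 to 1.28, and log2 signals of any 2 arrays correlated at 0.970 to 0.977.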

How the data were processed

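Gene expression was measured in 8 iPS clones, 4 with and 4 without ascorbic acid, as the labels group them. The deposited values are signal intensities per probe set on a linear scale, made with GCOS per the submitters' processing notes, whose version and settings were not given in the sources used here. From the values, the mean signal after trimming 2% at each end, averaged over the 8 arrays, was 500, so the arrays appear to have been scaled to that target. Of 45101 probe sets, 64 controls were left out, 34945 had 1 gene symbol, 932 several and 9160 none in the annotation. Entrez identifiers matched RefSeq (GRCm38.p6) for 99.4% of single symbols, and 0 were renamed. The files name no genome build, so genes have no coordinates here; microRNA positions are RefSeq's.

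From the deposited intensities log2(signal + 16) was computed, which understates changes of dim genes. The dimmest 40% of probe sets (signal under about 93.7) were left out. limma 3.58.1 in R 4.3.3 (lmFit, eBayes with trend) compared the groups, two-sided, once over 13125 genes and once over 27022 probe sets. Scripts were tested on simulated data. Figures were drawn with matplotlib 3.10.9. The number of arrays limits the precision.

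The 10 genes and all lists were chosen with earlier results of these data known. Named were all 10 genes, from each other list up to 4 genes past the threshold or else the 2 with the smallest p, and Meg3, Rian, Mirg, Pou5f1, Nanog and Sox2 in any case; genes overlapping let-7 loci were added by position. Alternatives were other scalings, pseudocounts (1, 64), filters (none, 60%), probe set rules, variance models, a replicate block and leaving out each clone.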

Additional observations from a re-analysis of the deposited data

Results flagged for a closer look

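Among 98 groups of 4 clones examined over the probe sets named in the text, 10 (10.2%) held a clone far from the other 3, where chance gives about 5%. Several of the 10 came from probe sets below the dim limit (Lncppara, Spaca6 and Dgcr8 1446169_at). Groups read on the same arrays are not independent, so the excess over 5% was not tested. In Lin28a (1421749_at) unsupplemented clone 2 read 2082, above 1877 to 1900 in the others. In Trim71 (1453599_at) supplemented clone 2 read 1121, below 1266 to 1275. Supplemented clone 2 also stood high in Dgcr8 (1455311_at), at 850 against 712 to 735, and low in Twist1, at 161 against 212 to 217, and in Spaca6, at 13.8 against 41.0 to 42.9. The dim Dgcr8 probe set 1446169_at read 35.2 in unsupplemented clone 3 against 71.8 to 77.7.

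Supplemented clone 1 stood apart in Ago2 in opposite directions, high on 1435636_at (1863 against 1253 to 1334) and low on 1455294_at (1060 against 1272 to 1312). Lncppara read 121 in unsupplemented clone 1 against 20.2 to 31.8, and 184 in supplemented clone 4 against 50.0 to 59.8, with all but these clones under the dim limit.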

How the results depend on the processing

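None of the 10 genes and none of their probe sets passed under any alternative run. Over all genes 3 passed, but 1 without the eBayes trend and 1 with robust estimation, and 2 to 4 when a clone was left out. Drosha, Dicer1, Xpo5, Ago1, Ago2 and Tarbp2 kept their sign in all 20 alternatives, and Lin28b in 19 (the 60% filter removes it). Drosha ranged from 0.059 to 0.33 log2. With a clone left out, Lin28a ranged from -0.011 to 0.11, Trim71 from -0.11 to 0.018 and Dgcr8 from -0.046 to 0.045. Signs turned for 3 genes: Lin28a to -0.011 without supplemented clone 4; Trim71 to 0.0010 under median centring, 0.012 without supplemented clone 2 and 0.018 without unsupplemented clone 2; Dgcr8 to -0.12 with the mean of its probe sets, -0.0040 without supplemented clone 4 and -0.046 without unsupplemented clone 4. With the clone number as a replicate block 3 genes passed over all genes and 0 of the 10. Deviations of same-numbered clones correlated at -0.152 to 0.0161, and in 0 of 4 was a supplemented clone closest to its own number. These correlations cannot show whether same-numbered clones shared an embryo or a batch, which the labels do not give. Dim signal limits what Lin28b, Lncppara and Spaca6 can show.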

Other observations

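Ago2 probe sets did not order the clones alike. On 1435636_at supplemented clone 1 (1863) and unsupplemented clone 3 (1769) were the highest of the 8, with the others between 1212 and 1384. On 1455294_at these clones read 1060 and 934, and 934 was the lowest of the 8. On 1455389_s_at, annotated to the same source sequence as 1435636_at, they read 3071 and 2822. This pattern was noticed after the values were seen and was not tested.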
